A study of Homo sapiens with 8 samples.

Results

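The genes described here carry names of the mitotic spindle, kinetochore and cyclin families and were measured in MCF10A, an immortalised, non-tumorigenic human breast epithelial line. They were taken by name from the expression table: every symbol starting with KIF and a digit, CENP, NCAP, BUB, AURK, CDCA or CDC25, together with CCNA2, CCNB1, CCNB2, CDK1, PLK1, PLK4, TOP2A, ASPM, TTK, NDC80, NUF2, NUSAP1, ECT2 and SMC2, and without antisense genes. This gave 71 members of 14944 loci, 67 of which reached a mean of 1 FPKM over the libraries and were tested. The names also take in kinesins assigned to other functions and chance matches to the prefixes. CDC20, TPX2, PRC1, ANLN and SMC4, also on the list of names, had no locus under their symbols and were not analysed here.

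All groups were the same cell line, grown for 3 days under treatment and sequenced as rRNA-depleted, stranded total RNA, with 2 libraries a group. The DMSO group received solvent alone. The AZD6738 group received 250 nM of AZD6738, an inhibitor of the checkpoint kinase ATR, the IR group received DMSO and 20 Gy of ionizing radiation, and the AZD6738+IR group, called the combined group below, received both, with solvent or inhibitor added 2 hours before irradiation. The 2 libraries of a group are lettered A and B, nothing in the labels says that they came from separate cultures, and p-values therefore measure only the spread between libraries.

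Cells that enter mitosis switch on a shared set of genes late in the cell cycle. Cyclins A and B activate the kinase CDK1, which CDC25 phosphatases release from inhibition, and condensins and topoisomerase II compact and untangle the chromosomes. CENP proteins and the Ndc80 complex assemble the kinetochore that holds spindle microtubules, checkpoint kinases such as TTK and BUB1 delay anaphase until every chromosome is attached, and kinesin motors shape the spindle. Much of this set is known to be repressed in cells that leave the cycle, through p21 and the DREAM complex, which binds CHR elements in promoters, and to be activated by B-MYB, FOXM1 and NF-Y, the last at CCAAT boxes.

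The deposited values were taken as FPKM, which divides fragments by transcript length and by the library's total, and they do not show how many reads lie behind them. The libraries summed to between 864306 FPKM in AZD6738 B and 969381 in the library AZD6738+IR B. That library stands apart, with 61.4% of its total in the 4 most abundant loci against 53.3% to 56.8% in the other 7. Of 10 breast epithelial markers 6 had a locus and summed to between 1754 and 4412 FPKM per library, whereas 1 of 6 fibroblast markers, DCN at 1.65 to 4.55 FPKM, and none of the endothelial and blood markers had one. These bulk values cannot tell fewer cells in late cell cycle phases from less RNA of these genes per cell.

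Mitotic genes stood at far lower FPKM in irradiated than in DMSO cells, and lower still in irradiated cells given AZD6738. FPKM are scaled to a library's total and are not amounts of RNA per cell. Kinesins assigned to other functions, KIF2A among them, and chance matches to the prefixes were set aside, which left 56 members. Their median level by library was 5.48 and 5.23 FPKM in DMSO and 4.51 and 4.66 in AZD6738. It was 2.70 and 2.91 in IR and 1.61 and 1.69 in the combined group. The groups did not overlap, while the median over all tested loci stayed between 5.42 and 5.92 FPKM in every library. In the test across all loci with limma on log2(FPKM + 1), 56 of 67 tested members were lower in IR than in DMSO, against a background of 38.0% of all loci, and 1 was higher, against 23.7%. The median member differed by -0.62 on this log2 scale and the median locus by -0.10.

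In the combined group 59 members were lower than in DMSO (background 45.6%) and 2 were higher (27.1%, or 72.7% in either direction), with a median of -1.06 against -0.16 over all loci. Set directly against IR, the combined group was lower for 50 members (31.5%) and higher for 4 (19.6%), with a median of -0.43 against -0.07. Against AZD6738 alone it was lower for 59 (45.2%) and higher for 2 (27.1%, or 72.4% in either direction). These comparisons share their DMSO, IR and combined libraries and are not independent of each other. Of the tested members 17 had a group mean under 1 FPKM and passed through their higher groups, so the same count was made over all 71 with no filter. It gave 58 lower and 2 higher for IR, and 62 lower and 3 higher for the combined group, both against DMSO. The shares of all loci above belong to the filtered fit of all 8 libraries, and none is given here for other fits. Without the library AZD6738+IR B, 60 tested members were lower than in DMSO.

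**Figure D1:**
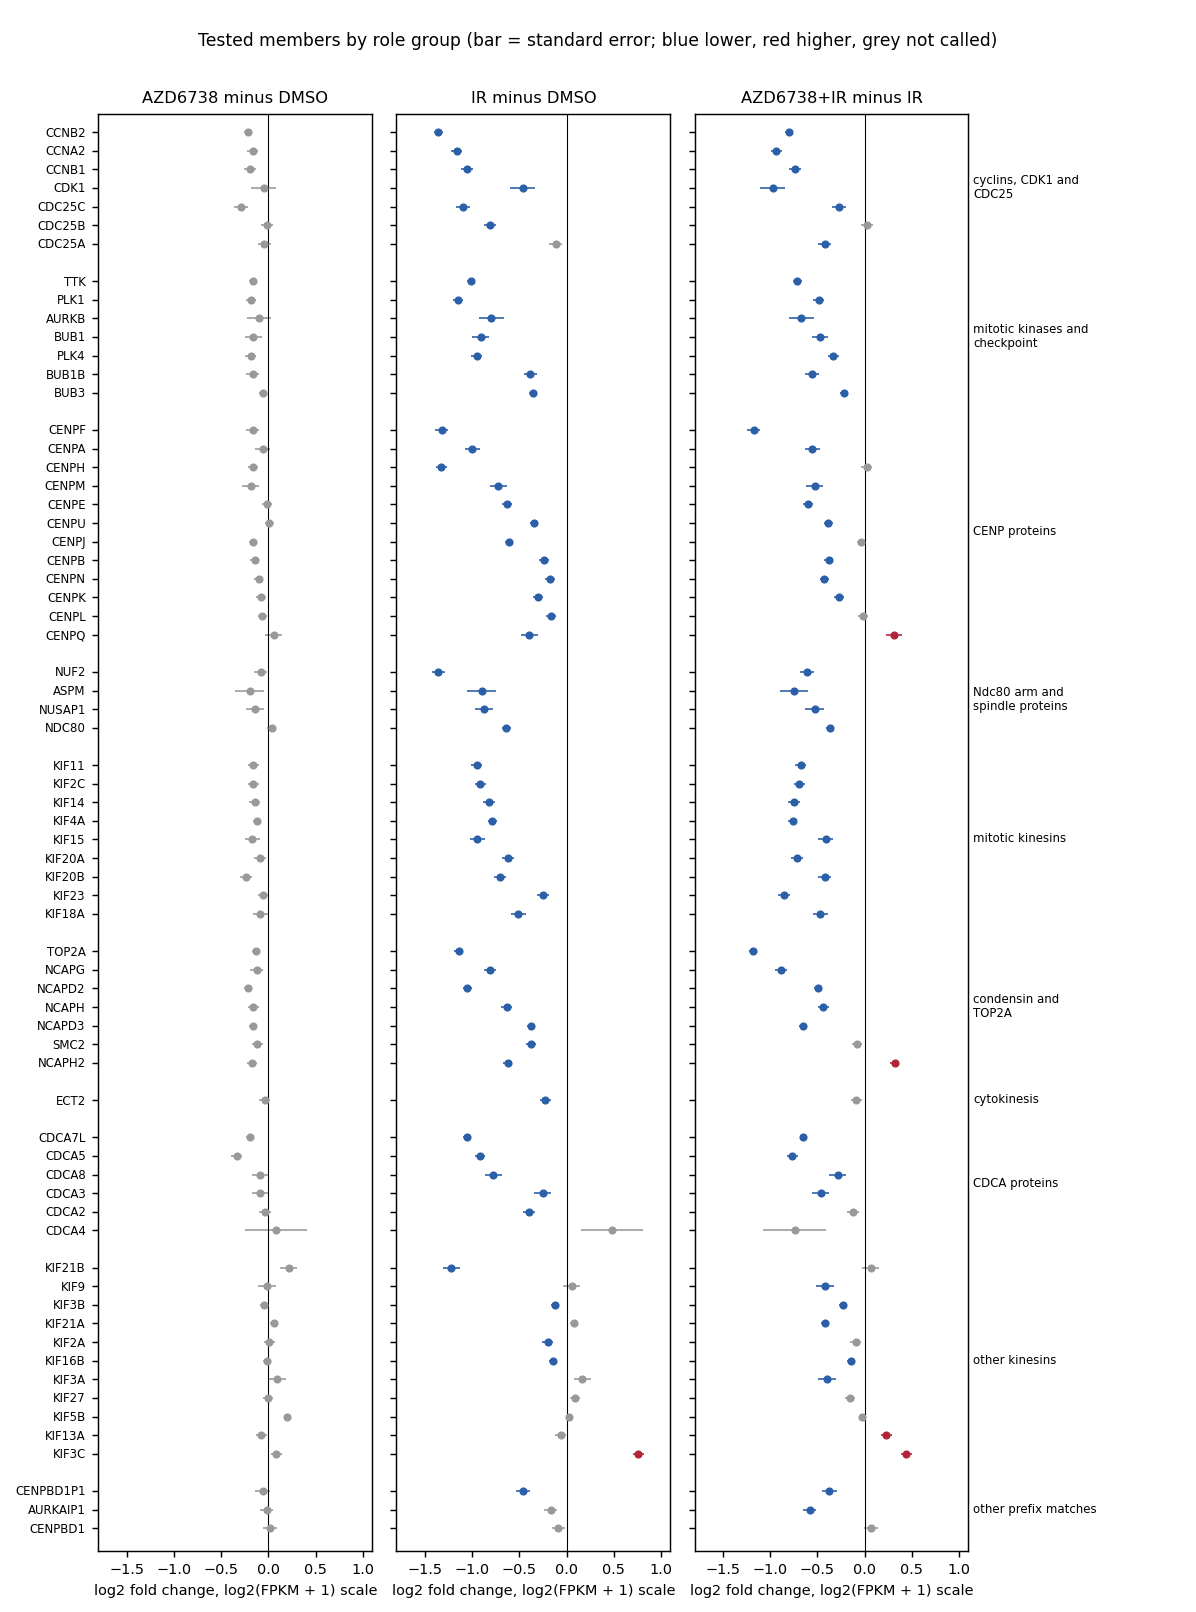
Difference of each of the 67 tested members between groups, in log2(FPKM + 1), for AZD6738 minus DMSO, IR minus DMSO and AZD6738+IR minus IR, ordered by role group; bars are the standard errors of the limma fit over 8 libraries and colour marks members past an adjusted p of 0.05. Nearly all members lie left of 0 after irradiation, most lie left again when the inhibitor is added, and in the AZD6738 panel no member is called.

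Promoters of the members carry the 2 elements named above more often than promoters in general, which is a description of sequence and not of binding. RefSeq windows of 250 bases before to 50 after the start, on GRCh38.p14, were listed for 58 of the 71 members. On either strand, the CHR letters TTTGAA or TTCGAA stood in 55.2% of member windows against 16.6% of 27305 windows, and the CCAAT box, CCAAT or ATTGG, in 60.3% against 35.7%. Both elements were found together in 41.4% of member windows and 6.58% of all. The 27305 windows, 1 per symbol, were not limited to genes with a locus in the expression table. Only the first window listed for a gene was read for these shares, so elements near another start are not counted. Mitotic kinesins held a CHR in 8 of 10 windows, and the other kinesins in 1 of 9. The 5 windows below are printed because they pair the 3 largest log2 falls in the combined group with KIF5B, which holds both elements and passed the test against DMSO in neither irradiated group, and KIF3C, which holds neither and rose; capitals mark CHR and CCAAT letters on either strand. CCNB2 is at chr15:59104896-59105195 (+), TOP2A at chr17:40417847-40418146 (-), CENPF at chr1:214602945-214603244 (+), KIF5B at chr10:32056376-32056675 (-) and KIF3C at chr2:25982448-25982747 (-), each read 5′ to 3′ on the gene's strand.
CCNB2: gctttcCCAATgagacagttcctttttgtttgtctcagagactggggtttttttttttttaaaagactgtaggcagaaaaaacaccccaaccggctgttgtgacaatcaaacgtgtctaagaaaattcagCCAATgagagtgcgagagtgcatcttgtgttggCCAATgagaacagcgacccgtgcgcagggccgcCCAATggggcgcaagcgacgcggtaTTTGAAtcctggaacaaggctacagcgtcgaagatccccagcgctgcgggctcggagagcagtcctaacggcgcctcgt
TOP2A: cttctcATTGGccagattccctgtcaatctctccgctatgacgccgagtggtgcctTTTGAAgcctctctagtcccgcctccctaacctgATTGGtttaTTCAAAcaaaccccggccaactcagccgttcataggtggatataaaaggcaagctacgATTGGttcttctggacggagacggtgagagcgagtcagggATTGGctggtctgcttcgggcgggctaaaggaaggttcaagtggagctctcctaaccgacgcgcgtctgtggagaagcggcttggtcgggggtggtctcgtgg
CENPF: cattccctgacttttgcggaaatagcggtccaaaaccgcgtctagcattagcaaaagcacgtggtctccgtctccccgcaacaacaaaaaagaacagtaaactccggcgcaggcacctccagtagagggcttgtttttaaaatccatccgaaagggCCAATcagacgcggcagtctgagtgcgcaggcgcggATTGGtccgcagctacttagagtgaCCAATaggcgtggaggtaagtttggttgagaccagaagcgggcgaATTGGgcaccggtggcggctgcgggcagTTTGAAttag
KIF5B: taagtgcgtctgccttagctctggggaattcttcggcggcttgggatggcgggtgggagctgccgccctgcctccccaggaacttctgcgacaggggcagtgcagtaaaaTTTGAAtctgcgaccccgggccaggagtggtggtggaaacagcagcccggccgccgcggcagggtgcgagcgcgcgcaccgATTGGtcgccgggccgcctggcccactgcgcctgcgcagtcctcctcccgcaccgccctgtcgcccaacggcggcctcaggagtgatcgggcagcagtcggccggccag
KIF3C: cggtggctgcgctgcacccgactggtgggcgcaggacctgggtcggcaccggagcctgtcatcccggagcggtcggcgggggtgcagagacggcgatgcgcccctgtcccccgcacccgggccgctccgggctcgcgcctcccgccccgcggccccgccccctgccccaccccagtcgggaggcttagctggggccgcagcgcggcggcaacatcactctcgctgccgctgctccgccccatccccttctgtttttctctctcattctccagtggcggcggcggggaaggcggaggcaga

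The CCNB2 window has its CHR 29 bases before the start, with 4 CCAAT boxes, and the TOP2A window has 2 CHR matches and 4 boxes. The CENPF match lies 40 bases past the start. Grouped by these letters, the median difference of tested members between the combined group and DMSO was -1.42 for 22 members with both elements, -1.32 for 8 with CHR only, -0.75 for 11 with CCAAT only and -0.49 for 14 with neither. The ranges overlap widely, from -2.50 to 0.00 with both and from -1.70 to 1.2 with neither. Those with neither include the other kinesins KIF13A, KIF16B, KIF21A, KIF2A, KIF3A, KIF3C and KIF9, so these medians mix letters with role. The mitotic members with neither were CDCA7L at -1.70, KIF2C at -1.60, CDC25C at -1.37, CENPE at -1.23, NCAPD3 at -1.03, CDC25B at -0.78 and CENPB at -0.62. Whether the letters matter within the mitotic members was not tested.

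Cyclins A2, B1 and B2 were among the most reduced members. CCNB2, a B-type cyclin (chromosome 15, 59105078 to 59125045, plus strand, in GENCODE 29 on GRCh38), stood at 15.6 and 16 FPKM in DMSO, 13.2 and 13.7 in AZD6738, 5.46 and 5.67 in IR and 2.69 and 2.85 in the combined group. The 4 groups did not overlap. CCNB2 fell by 1.36 ± 0.04 (SE) in log2(FPKM + 1) after IR (adjusted p = 1.54e-05) and was 5.71-fold lower in mean FPKM in the combined group than in DMSO (log2 difference -2.16, adjusted p = 9.18e-07).

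CCNA2, the cyclin that partners CDK2 in S phase and CDK1 in G2, went from 10.5 ± 0.813 FPKM (SD, n = 2) in DMSO to 4.11 ± 0.0186 in IR and 1.67 ± 0.0552 in the combined group. CCNB1, the main mitotic cyclin, went from 25.1 ± 1.62 to 11.6 ± 0.0875 and 6.56 ± 0.475 FPKM. Both fell in each step, with adjusted p of 0.000117 for CCNA2 and 0.000338 for CCNB1 between the combined group and IR.

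CDK1, the catalytic partner of these cyclins, behaved less evenly under radiation alone. Its libraries read 6.09 and 6.22 FPKM in DMSO, 6.21 and 5.61 in AZD6738, 3.53 and 4.95 in IR and 1.53 and 1.77 in the combined group. IR lay below DMSO in both libraries, and the combined group lay below IR. The IR call (log2 difference -0.46, adjusted p = 0.0245) was lost without DMSO A (0.0786), DMSO B (0.0911) or IR A (0.0557), whereas against IR the combined group was lower by -0.97 ± 0.13 (adjusted p = 0.00187).

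The 3 CDC25 phosphatases differed from one another. CDC25C, which acts at mitotic entry, was 3.27 and 2.97 FPKM in DMSO, 1.02 and 0.852 in IR and 0.522 and 0.675 in the combined group. It fell after IR (adjusted p = 9.54e-05), and the further step to the combined group passed at 0.0247 but not without AZD6738+IR A (0.095) or IR A (0.118). CDC25A and CDC25B were singled out after their values were seen. CDC25B was 13.4 and 12.3 FPKM in DMSO, 6.79 and 7.0 in IR and 7.46 and 6.67 in the combined group, so it fell after IR (adjusted p = 0.000148) and the irradiated groups overlapped (0.723). CDC25A, a G1/S and G2/M phosphatase, was 2.98 and 2.99 FPKM in DMSO and 2.46 and 2.93 in IR, which did not pass (0.195), and 1.76 and 1.74 in the combined group, which did (0.000623).

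**Figure D2:**
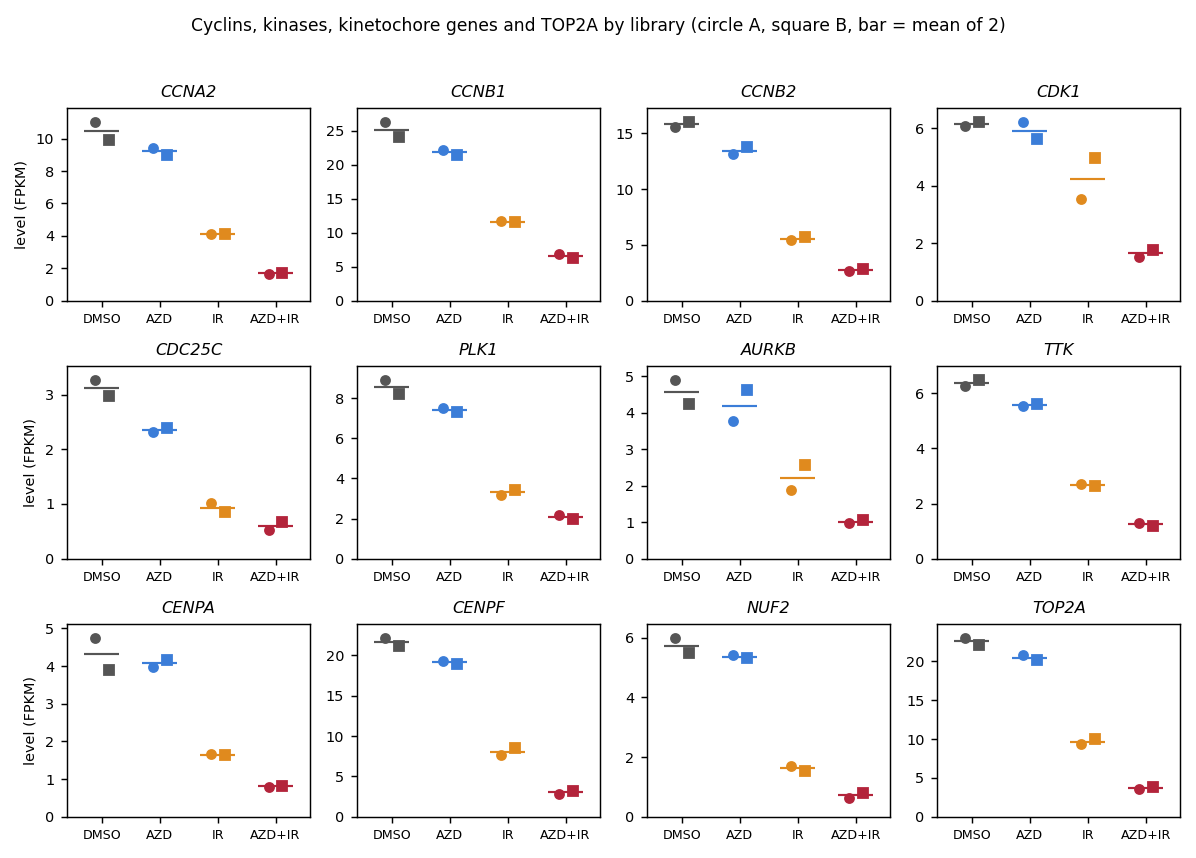
Level in FPKM of 12 cyclin, kinase, kinetochore and chromosome genes in each of the 8 libraries; circles are library A, squares library B and bars the mean of both, and each axis starts at 0. The DMSO and AZD6738 libraries stand highest, IR lies between and the combined libraries are lowest in every panel, with the widest gap between IR libraries in CDK1.

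All 7 tested mitotic kinase and checkpoint genes fell after IR, against 38.0% of all loci, and all 7 fell again from IR to the combined group, against 31.5%. TTK, the kinase that starts the spindle checkpoint, was 6.28 and 6.49 FPKM in DMSO, 5.55 and 5.63 in AZD6738, 2.69 and 2.64 in IR and 1.3 and 1.18 in the combined group. No groups overlapped, and the combined level was 19.4% of DMSO (log2 difference -1.72, adjusted p = 1.73e-06). PLK1, which drives centrosome maturation and mitotic entry, was at 38.7% of DMSO after IR and 24.3% in the combined group, and AURKB, the kinase of the chromosomal passenger complex that corrects attachments, at 48.6% and 22.2%.

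The spread was wider for AURKB, with 1.88 and 2.56 FPKM in IR and 0.965 and 1.06 in the combined group, which still did not overlap (adjusted p = 0.00732). BUB1, which recruits checkpoint proteins to kinetochores, went from 6.93 ± 0.606 FPKM in DMSO to 3.23 ± 0.321 in IR and 2.05 ± 0.194. BUB3, the partner of BUB1 that is also the most abundant of the group at 37.2 ± 1.80 FPKM in DMSO, changed least, to 77.7% and 66.6% of DMSO, and its call between the irradiated groups was lost without IR A (0.0505). PLK4, the kinase of centriole duplication, reached 38.5% and 25.0%.

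Of the CENP proteins 12 of 14 were tested, and 12 fell after IR (38.0% of all loci) and 11 were below DMSO in the combined group (45.6%). Of the 12 IR calls, leaving out a library ended that of CENPL in 5 of 8 fits, that of CENPN, another inner kinetochore subunit, in 3 and that of CENPQ in 2. CENPF, a large kinetochore and nuclear matrix protein of G2 and mitosis (chromosome 1, 214603195 to 214664588, plus strand), showed the largest log2 difference from DMSO of all tested members in the combined group. It was 22.1 and 21.1 FPKM in DMSO, 19.3 and 18.9 in AZD6738, 7.59 and 8.54 in IR and 2.85 and 3.18 in the combined group. No groups overlapped, and the combined mean was 7.18-fold below DMSO (log2 difference -2.50 ± 0.07, adjusted p = 1.96e-06).

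CENPA, the histone H3 variant that marks centromeres, was 4.74 and 3.89 FPKM in DMSO, 1.67 and 1.63 in IR and 0.782 and 0.826 in the combined group, and fell in both steps (adjusted p = 0.000168 and 0.00234). CENPE, a kinesin of the kinetochore, was at 56.7% of DMSO after IR and 29.7% in the combined group. CENPB, a binder of centromeric satellite DNA and, with 55.8 ± 1.41 FPKM in DMSO, the most abundant CENP member, was at 84.3% and 64.4%. CENPB and CDC25B are neighbours on chromosome 20 that are read in opposite directions from windows that overlap, and their levels after IR were 84.3% and 53.5% of DMSO.

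CENPH, CENPJ and CENPL fell after IR without a further call between the irradiated groups. CENPH, a subunit of the inner kinetochore, was 8.58 and 9.10 FPKM in DMSO, 7.52 and 8.07 in AZD6738, 2.79 and 3.06 in IR and 3.02 and 2.95 in the combined group. The irradiated groups overlapped at 33.1% and 33.7% of DMSO, and their log2 difference was 0.02 ± 0.06 (adjusted p = 0.786). CCNB1, its neighbour on chromosome 5, fell in both steps.

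CENPJ, a centriolar protein, and CENPL, another inner kinetochore subunit, also differed by less than the threshold between the irradiated groups, at 54.9% and 52.7% of DMSO for CENPJ and 85.0% and 83.4% for CENPL. The IR call of CENPL (adjusted p = 0.0314) reached 0.138 without DMSO A, and its call in the combined group against DMSO (0.018) was lost without AZD6738+IR A (0.0744) or DMSO A (0.0844). These and CENPQ were named after their values were seen. CENPQ, of the inner kinetochore as well, was 1.49 and 1.57 FPKM in DMSO, 1.02 and 0.838 in IR and 1.58 and 1.22 in the combined group. It was higher in the combined group than in IR at an adjusted p of 0.030, which was lost in 6 of the 8 fits that leave out a library, with values up to 0.139 without IR B. Its fall after IR (0.0103) was lost without DMSO B (0.0525) or IR B (0.0566). Below the filter, CENPI and CENPW were at 36.6% and 18.5% of DMSO in the combined group and passed in the fit with no filter (adjusted p = 0.00142 and 0.000417).

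The outer kinetochore and spindle proteins NDC80, NUF2, NUSAP1 and ASPM fell in both steps. Of all loci, 38.0% were lower after IR and 31.5% were lower in the combined group than in IR. NUF2, a subunit of the Ndc80 complex, was 5.99 and 5.47 FPKM in DMSO, 5.40 and 5.31 in AZD6738, 1.71 and 1.54 in IR and 0.638 and 0.808 in the combined group. Each group lay below the one before, and the mean of the combined group was 7.92-fold below DMSO (log2 difference -1.97, adjusted p = 4.24e-06). Its partner NDC80 changed less, from 4.2 ± 0.0496 FPKM to 2.34 ± 0.0719 and 1.59 ± 0.115, or 37.9% of DMSO. ASPM, a spindle pole protein, was 0.92 and 1.67 FPKM in the combined group, its widest gap between libraries, and 5.92 and 6.24 in DMSO.

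The kinesins were counted by function. All 9 tested mitotic kinesins fell after IR and fell again from IR to the combined group, with median log2 differences of -0.79 and -0.69. Of the 11 kinesins assigned to transport and other roles, 4 were lower and 1 higher after IR. In the combined group 5 were lower and 2 higher than in IR. Among these 11 is KIF2A, a relative of the mitotic KIF2C, so the count of 9 depends on that assignment. The step of KIF2A from IR to the combined group did not pass (adjusted p = 0.221). Over all loci 38.0% were lower and 23.7% higher after IR, and 31.5% and 19.6% in the combined group against IR, so the counts of the other kinesins give no result about them as a group. The IR calls of KIF2A, KIF3B and KIF16B among the 4 were each lost in at least 3 fits that leave out a library. KIF11, the motor that pushes spindle poles apart, was 6.51 and 6.76 FPKM in DMSO, 5.68 and 5.97 in AZD6738, 2.78 and 3.12 in IR and 1.39 and 1.55 in the combined group. No groups overlapped, and 22.2% of the DMSO level was left (adjusted p = 4.85e-06).

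KIF4A, a chromosome-bound motor of chromosome condensation and the anaphase midzone, was at 46.5% of DMSO after IR and 16.1% in the combined group. KIF14, a motor of cytokinesis, was at 47.2% and 19.6%, and KIF2C, which depolymerises microtubules at centromeres, at 46.8% and 23.9%. KIF15, named after its values were seen, was lowest of the mitotic kinesins relative to DMSO, with 2.61 and 2.11 FPKM in DMSO, 0.733 and 0.740 in IR and 0.287 and 0.322 in the combined group. KIF15 passed the filter through its DMSO and AZD6738 libraries. KIF18B, below the filter, was 1.24 and 1.04 FPKM in DMSO and 0.275 and 0.238 in the combined group.

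KIF23, the motor subunit of centralspindlin in cytokinesis, followed a different course from the other mitotic kinesins. It was 7.04 and 6.39 FPKM in DMSO, 6.61 and 6.26 in AZD6738, 5.36 and 5.63 in IR and 2.48 and 2.71 in the combined group. IR left 81.8% of the DMSO level, a call (adjusted p = 0.0146) that was lost without DMSO A (0.0696) or IR A (0.0773), whereas the combined group held 38.6% (log2 difference from IR -0.85 ± 0.06, adjusted p = 0.000196). ECT2, the exchange factor that centralspindlin engages in cytokinesis, was at 83.9% of DMSO after IR and 78.1% in the combined group, with no call between these groups (0.26). Its IR call (0.0162) was lost without DMSO A (0.0534), DMSO B (0.0689) or IR A (0.053).

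**Figure D3:**
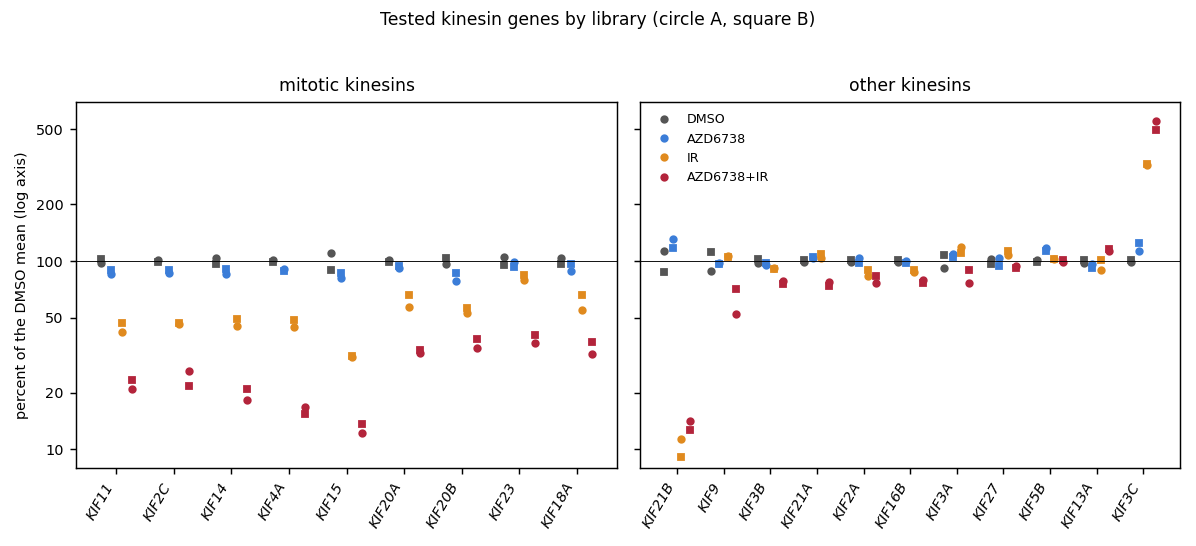
Level of the 20 tested kinesin genes in each library as a percentage of the DMSO mean, on a log axis, with mitotic kinesins on the left and other kinesins on the right; circles are library A, squares library B and the line marks 100%. The mitotic kinesins step down from IR to the combined group, whereas KIF5B stays near 100%, KIF21B sits near 10% after irradiation and KIF3C rises above 300%.

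Among the other kinesins, KIF3C rose. This subunit of kinesin-2, best known from neurons, was 0.440 and 0.449 FPKM in DMSO, 0.500 and 0.557 in AZD6738, 1.44 and 1.45 in IR and 2.45 and 2.20 in the combined group. No groups overlapped, and its means were 326% and 523% of DMSO after IR and in the combined group (log2 differences 0.76 and 1.2, adjusted p = 0.000128 and 1.05e-05). KIF3C passed the filter through its irradiated libraries. Its kinesin-2 relatives moved otherwise, with KIF3A at 5.99 ± 0.696 FPKM in DMSO and 4.96 ± 0.541 in the combined group (not passed, 0.0661) and KIF3B at 14.5 ± 0.446 and 11.2 ± 0.292 (0.000406).

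KIF21B, a motor and microtubule regulator known from neurons and lymphocytes, had the lowest remaining share after IR of all tested members. It was 1.98 and 1.54 FPKM in DMSO, 2.31 and 2.07 in AZD6738, 0.200 and 0.160 in IR and 0.248 and 0.222 in the combined group. The 2 irradiated groups stood at 10.2% and 13.4% of DMSO and did not differ past the threshold (adjusted p = 0.571). KIF21B passed the filter through its DMSO and AZD6738 libraries, and these shares rest on means of 0.180 and 0.235 FPKM.

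KIF5B, the heavy chain of the ubiquitous transport motor kinesin-1, was level across DMSO, IR and the combined group at 39.7 ± 0.635, 40.6 ± 0.043 and 39.8 ± 0.797 FPKM. With AZD6738 alone it read 46.4 and 44.8, above both DMSO libraries and without a call (adjusted p = 0.134). The combined group was lower than AZD6738 alone (log2 difference -0.19, adjusted p = 0.00343), and these groups did not overlap. That call was lost under 3 other scalings of the libraries, with an adjusted p up to 0.81. KIF13A, a motor of endosomal transport, was 6.04 and 6.26 FPKM in DMSO, 5.52 and 6.20 in IR and 6.99 and 7.09 in the combined group. Its call against DMSO (adjusted p = 0.0396) was lost in 6 fits that leave out a library, with up to 0.148 without DMSO A, and its call against IR (0.0192) without AZD6738+IR A (0.0538), AZD6738+IR B (0.0682) or IR A (0.0799). KIF9, a kinesin linked to cilia and flagella, fell in the combined group, at 61.7% of DMSO (0.014) against 106% after IR (0.653), a call that was lost without AZD6738+IR A (0.0597) or DMSO B (0.0677). KIF27 did not pass against DMSO in either irradiated group (0.19 and 0.331).

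All 6 condensin subunits with a locus, and TOP2A, fell after IR, against 38.0% of all loci, but they separated once the inhibitor was added. From IR to the combined group 5 of these 7 were lower, against 31.5% of loci, and 1 was higher, against 19.6%. TOP2A, which untangles sister chromosomes (chromosome 17, 40388516 to 40417950, minus strand), was 23.0 and 22.1 FPKM in DMSO, 20.8 and 20.2 in AZD6738, 9.41 and 9.97 in IR and 3.63 and 3.80 in the combined group. No groups overlapped, and the combined mean was 6.08-fold below DMSO (adjusted p = 8.62e-07). The condensin I subunits NCAPG, NCAPD2 and NCAPH held 48.7%, 45.7% and 45.4% of DMSO after IR and 17.6%, 31.0% and 19.6% in the combined group, each below IR (adjusted p = 0.000227, 0.000401 and 0.00219). NCAPH passed the filter through its DMSO and AZD6738 libraries. Its shares rest on means of 0.849 FPKM in IR and 0.368 in the combined group.

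The 2 condensin II subunits with a locus moved in opposite directions. NCAPD3 was 6.92 and 6.64 FPKM in DMSO, 4.85 and 5.10 in IR and 2.77 and 2.82 in the combined group, lower than IR by a log2 difference of -0.65 ± 0.04 (adjusted p = 0.000125). NCAPH2 was 10.5 and 10.8 FPKM in DMSO, 8.94 and 9.78 in AZD6738, 6.62 and 6.57 in IR and 8.35 and 8.58 in the combined group. Both combined libraries lay above both IR libraries, with a difference of 0.32 ± 0.05 (adjusted p = 0.0029) that kept its call in each alternative fit, and NCAPH2 remained below DMSO at 79.3%. SMC2, the ATPase of both condensins, named after its values were seen, was at 73.5% and 68.7% of DMSO, with no call between the irradiated groups (0.273).

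**Figure D4:**
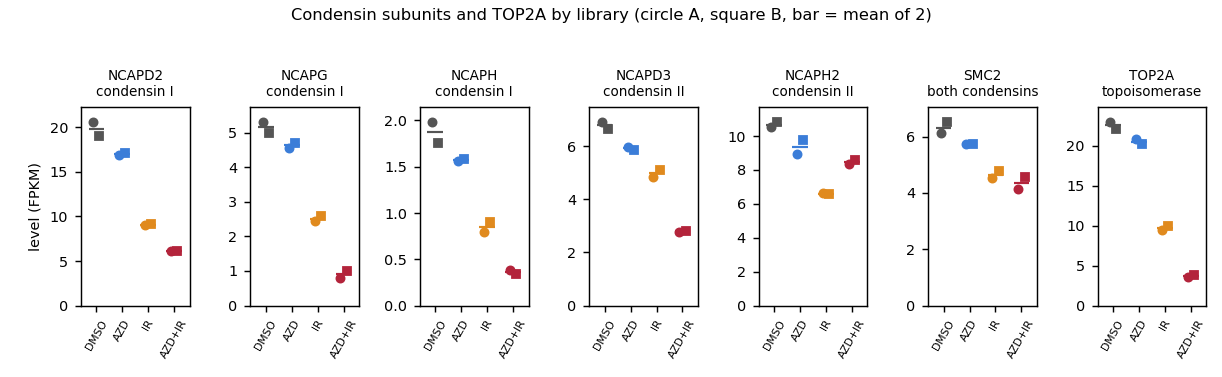
Level in FPKM of the 6 condensin subunits and TOP2A in each of the 8 libraries; circles are library A, squares library B, bars the mean of both, and every axis starts at 0. NCAPH2 alone of these 7 stands higher in the combined group, at 8.47 FPKM, than in IR, at 6.59.

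The CDCA genes, named for their association with the cell cycle, fell in 5 of 6 cases after IR, against 38.0% of all loci. For CDCA3 among the 5 the call (adjusted p = 0.0428) was lost in 6 of 8 fits that leave out a library, with up to 0.187 without DMSO A, and with the letter as a block (0.0528). CDCA7L, a MYC-interacting nuclear protein, was 19.1 and 19.9 FPKM in DMSO, 8.90 and 8.83 in IR and 5.21 and 5.39 in the combined group, which did not overlap (adjusted p = 1.32e-06 against DMSO). CDCA5, known as sororin, the protector of sister chromatid cohesion, was at 44.9% and 19.3% of DMSO. CDCA8, borealin of the chromosomal passenger complex, was at 47.2% and 33.8%, and its step from IR to the combined group (adjusted p = 0.0362) was lost in 4 fits that leave out a library, up to 0.165 without IR B.

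CDCA4 did not pass in any comparison, and its libraries disagreed within groups. It read 7.37 and 3.66 FPKM in IR and 3.79 and 1.91 in the combined group, against 3.62 and 3.35 in DMSO. Symbols that share a prefix without a known mitotic role moved less evenly. AURKAIP1, a mitochondrial ribosome protein that also binds Aurora A, went from 57.4 ± 0.282 FPKM to 51.1 ± 5.42 after IR (0.0806) and 33.7 ± 0.666 in the combined group (0.00016). The pseudogene AURKAPS1, below the filter, was 0.556 and 0.552 FPKM in DMSO and 1.14 and 1.22 in the combined group, higher with no filter (adjusted p = 0.000647), and reads shared with near-identical copies could have been assigned to it or to its relatives. CENPBD1 passed in neither comparison with DMSO, and CENPBD1P1 fell from 7.13 ± 0.665 FPKM in DMSO to 3.56 ± 0.374 in the combined group (0.00016).

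The inhibitor alone called no member, with 0 of 67 at an adjusted p under 0.05 in limma and 0 in every alternative fit, against 0.0546% of loci lower and 0.0937% higher. At an unadjusted p under 0.05, 22 members were lower, against 6.47% of loci, and 1 was higher, against 929 of 12809 loci. Both AZD6738 libraries lay below both DMSO libraries for 44 members, against 25.9% of loci, and the median member differed by -0.09. CDCA5, at 75.6% of DMSO, had the smallest adjusted p of the tested members (0.127), with 4.45 and 4.27 FPKM against 5.87 and 5.68. CDC25C stood at 75.5% and CCNB2 at 85.1%. In the presence of radiation, both combined libraries lay below both IR libraries for 54 members, against 45.9%.

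The difference between what the inhibitor did with and without radiation, the interaction in log2(FPKM + 1), was tested in the same fit. It was negative past the threshold for 32 of 67 members, against 22.4% of loci, and positive for 3, against 13.1%, or 35.5% in either direction. TOP2A had -1.05 ± 0.06 (adjusted p = 0.000278) and CENPF -1.01 ± 0.10 (0.00112). KIF23 had -0.80, CCNA2 -0.77, KIF4A -0.64, CCNB2 -0.58, TTK -0.55 and NCAPD3 -0.48. These 8 had the smallest adjusted p among the negative values, and without radiation the inhibitor moved them by -0.22 to -0.05. The positive ones were NCAPH2 at 0.49 (0.00376), KIF3C at 0.36 (0.018) and KIF13A at 0.31 (0.0329). Leaving out a library left KIF3C past the threshold in 3 of 8 fits and KIF13A in 1, and all of the other 9 named here in 8.

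**Figure D5:**
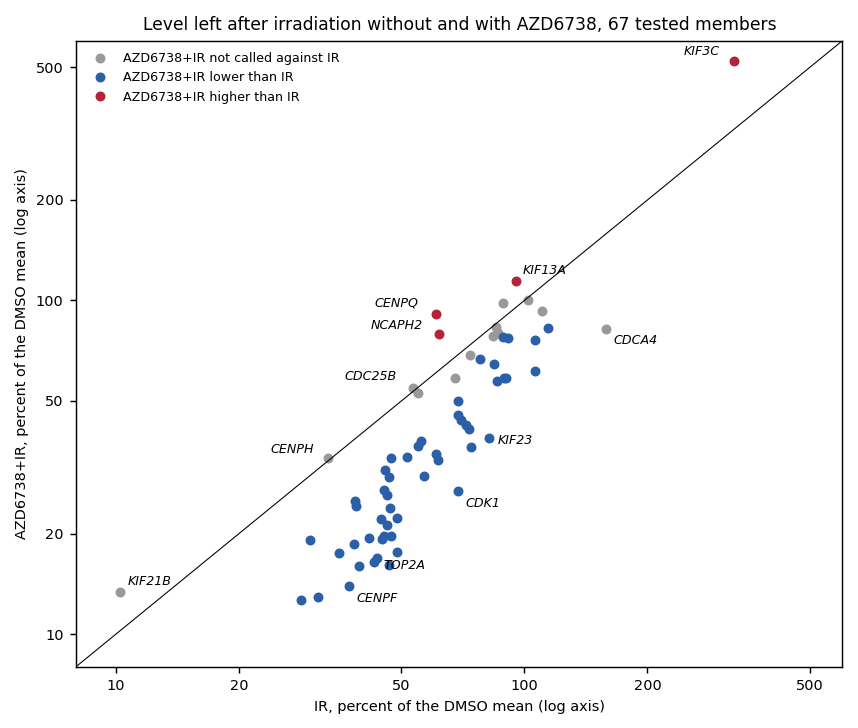
Level left in the combined group against level left in IR, each as a percentage of the DMSO mean on log axes, for the 67 tested members; the line marks equal levels and colour marks the call between the combined group and IR. Most points lie below the line, CENPH and CDC25B lie on it, and NCAPH2, CENPQ, KIF13A and KIF3C lie above it with a call. KIF21B and CENPBD1 also lie above the line, without a call.

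Genes outside the name rule were counted in lists by function, with the DMSO, IR and combined libraries shared. Of 48 other tested mitotic genes, 39 were lower and 1 higher after IR, 41 lower and 4 higher in the combined group, and 30 lower and 4 higher in the combined group than in IR, with 0 called for AZD6738 alone. The shares of all loci, for these and the lists that follow, were 38.0% lower and 23.7% higher after IR, 45.6% and 27.1% in the combined group, and 31.5% and 19.6% in the combined group against IR. BIRC5, survivin of the passenger complex, went from 11.7 ± 0.72 FPKM to 4.29 ± 0.169 in IR and 1.5 ± 0.0413 in the combined group (log2 difference -2.34 from DMSO, adjusted p = 1.26e-06). UBE2C, the ubiquitin-conjugating enzyme that serves the anaphase-promoting complex, went from 25.4 ± 0.868 to 9.95 ± 0.697 and 4.51 ± 0.0535 FPKM, and MAD2L1, the checkpoint inhibitor of that complex, from 18.8 ± 0.301 to 7.76 ± 1.07 and 3.57 ± 0.706.

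The anaphase-promoting complex, which ends mitosis by marking cyclin B and securin for destruction, was lower in 8 and higher in 1 of 13 subunits after IR, and 10 and 1 in the combined group, where the shares over all loci were 38.0% and 23.7%, and 45.6% and 27.1%. In the combined group its median was -0.50, and ANAPC1 had the largest difference at -0.70. Among 9 tested cohesin genes, 7 were lower after IR (38.0% of loci) and 6 in the combined group (45.6%). Against IR, 2 were lower in the combined group (31.5%) and 3 higher (19.6%). STAG1, a cohesin subunit, went from 8.21 ± 0.226 FPKM to 4.30 ± 0.202 and 3.5 ± 0.206.

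The genes of DREAM, MuvB, B-MYB and FOXM1 are regulators of mitotic transcription. Their list also named RB1 and further E2F genes, and 14 of the listed genes had a locus. Of 13 tested, 7 were lower and 2 higher after IR, against 38.0% and 23.7% of loci, and 8 lower and 4 higher in the combined group, against 45.6% and 27.1%. MYBL2, which encodes B-MYB, went from 10.6 ± 1.17 FPKM to 5.81 ± 0.428 and 1.83 ± 0.148 (log2 difference -2.03 from DMSO, adjusted p = 7.2e-06). LIN52, a MuvB subunit, was 1.78 ± 0.0911 FPKM in DMSO, 1.42 ± 0.0709 in IR and 3.89 ± 0.14 in the combined group, where it rose (0.82, adjusted p = 3.03e-05).

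Of 15 other cyclins, CDKs and their regulators, 5 were lower and 7 higher after IR, against 38.0% and 23.7% of loci, and 6 and 6 in the combined group, against 45.6% and 27.1%. The counts of lower genes were near the shares of all loci and give no result about the list. CDKN1A, which encodes the CDK inhibitor p21, went from 54.1 ± 1.48 FPKM in DMSO and 79.2 ± 0.353 in AZD6738 to 302 ± 10.8 in IR and 461 ± 48.6 in the combined group (log2 difference 3.06 from DMSO, adjusted p = 1.55e-06). CCND1, the G1 cyclin D1, rose from 38.4 ± 0.719 to 70.5 ± 0.241 and 81.6 ± 3.35 FPKM, whereas its partner CDK4 fell from 38.6 ± 1.26 to 20.8 ± 0.442 and 11.5 ± 0.368.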

How the data were processed

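Total RNA of MCF10A cells was measured in 8 libraries, 2 in each of 4 groups taken from the treatment in the labels. The tools in the submitters' processing notes are HISAT2 2.0.4, StringTie 1.3.4d and FastQC, and the build is hg38. Neither roles nor settings are stated for them. A single filtered table, deposited by the authors, has 1 column per library and no unit in its header. Its deposited values were read as FPKM, since StringTie writes FPKM and TPM and the column totals differ, but a filtered TPM table would look alike. Such values depend on a few abundant RNAs through the library total and do not reveal read depth. The p-value columns that the authors deposited were not used. Assembled loci can merge neighbouring genes. Columns matched groups by name and carry letters where the labels number replicates, 0 value columns belonged to no sample, and no replicate pair held identical values.

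Symbols with several entries kept the one of highest mean, which removed 299 of 14944 loci and none of the members. limma 3.58.1 in R 4.3.3 was fitted to log2(FPKM + 1), with 1 coefficient per group, an intensity trend and the 12809 loci whose mean reached 1 FPKM, leaving 4 residual and 1.79 prior degrees of freedom. The 6 contrasts were tested two-sided, with Benjamini-Hochberg adjustment over all loci and a threshold of 0.05, and the code was tested on simulated data. The interaction is the inhibitor's effect in irradiated cells minus its effect in non-irradiated cells. A permutation test of 2 against 2 libraries cannot go below 0.333.

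Members, role groups and lists were chosen with earlier results of these data known. Named members were the 3 largest differences between the combined group and DMSO per role group, those higher or not called, up to 8 called for the interaction, and sentinels. From other lists up to 4 genes were named. Alternatives covered pseudocount, filter, scaling, variance trend, samples in the fit, pairing and left-out libraries. Gene positions are from GENCODE 29, and promoters are the first RefSeq window listed per symbol. A promoter match to any listed window was tried after seeing the data.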

Additional observations from a re-analysis of the deposited data

Results flagged for a closer look

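The effect of AZD6738 differed between irradiated and non-irradiated cells, by the interaction in limma on log2(FPKM + 1), for 32 members in the negative direction, against 22.4% of all loci, and 3 in the positive, against 13.1%. Leaving out 1 library gave 24 to 33 negative and 1 to 2 positive. The negative ones named were TOP2A at -1.05, CENPF at -1.01, KIF23 at -0.80, CCNA2 at -0.77, KIF4A at -0.64, CCNB2 at -0.58, TTK at -0.55 and NCAPD3 at -0.48. The positive ones were NCAPH2 at 0.49, KIF3C at 0.36 and KIF13A at 0.31. In irradiated cells the inhibitor moved these 3 genes by 0.32, 0.44 and 0.23. Without radiation it moved them by -0.17, 0.08 and -0.08, with no call. The share of the library total taken by the 4 most abundant loci moved with the groups, from 53.3% to 54.1% without radiation to 56.5% and 56.7% in IR and 56.8% and 61.4% in the combined group, and its part in these differences was not tested beyond the scaling alternatives.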

How the results depend on the processing

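Counts of members past the threshold kept to within 1.5 times of the reported count except as follows. A minimum mean of 5 FPKM left 27 members to test, of which 22 were lower after IR, 24 in the combined group against DMSO, 26 against AZD6738, 19 against IR and 17 for the interaction. With that filter 0 were higher after IR, 1 in the combined group against DMSO, 1 against AZD6738 and 2 against IR. No shares of all loci are given for that filter or for the other fits below. The single member higher after IR became 3 with median centring, 3 with quantile normalization, 2 with no filter and 2 with totals that leave out the 4 most abundant loci, and a fit of only the compared groups gave 2 higher than IR in the combined group. Apart from the filters, the cause was not tested. Leaving out 1 library gave 47 to 56 members lower after IR, 57 to 60 in the combined group against DMSO, 46 to 50 against IR, 56 to 59 against AZD6738 and 24 to 33 for the interaction. The counts of higher members ranged from 1 to 2 against DMSO, 1 to 2 against AZD6738, 2 to 3 against IR and 1 to 2 for the interaction.

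The labels do not say whether the letters pair libraries. Deviations of same-lettered libraries correlated between -0.0513 and 0.158 across loci, which cannot decide it with 1 deviation per group. With the letter as a replicate block, 54 members were lower after IR, 59 in the combined group against DMSO, 49 against IR and 32 for the interaction, and 1 was higher against DMSO in place of 2, KIF13A being lost. No shares of all loci are given for this fit, so its counts show only how the calls of members held. No result changed direction past the threshold. Over the named members alone, 4194 recomputed values kept their side of the threshold, 99 lost and 21 gained a call. The deposited values carry no read counts, so counting error is unknown, and with 2 libraries a group small differences such as those of AZD6738 alone are hard to detect. Any listed promoter window in place of the first gave a CHR in 60.3% of members against 19.5% of genes.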

Other observations

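Members that lie close together did not always move together. CCNB1 and CENPH are neighbours on chromosome 5 and were at 46.2% and 33.1% of DMSO after IR, but at 26.1% and 33.7% in the combined group. KIF15, NUF2 and KIF21B reached lower shares of DMSO in the combined group (12.9%, 12.6% and 13.4%) than CENPF (13.9%), although their log2(FPKM + 1) differences were smaller, since a pseudocount of 1 weighs more at low levels.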
